A study of Mus musculus with 6 samples.

Results

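B2m encodes beta-2-microglobulin, the light chain of major histocompatibility complex (MHC) class I molecules. It was followed here as 1 of the 15 genes whose probe carries a RefSeq transcript accession, among 60915 probes on the array. The probe was found by its transcript accession, and B2m was chosen by its levels in these same 6 arrays, which were already known to be higher after chondrogenic differentiation than before it. Its levels are therefore given as a description, with standard deviations and standard errors and without p-values. The RNA came from ATDC5, a mouse chondrogenic cell line derived from a teratocarcinoma. There were 3 arrays of cells labelled as differentiated, after 14 days with 1% ITS (insulin, 5.5 µg/ml human transferrin and 5 ng/ml sodium selenite), and 3 arrays of undifferentiated ATDC5 cells. The insulin concentration in the labels is printed as zero, and how long undifferentiated cells were cultured is left unstated in them. All samples came from the same line, kept in DMEM/Ham's F-12 medium with serum, and nothing in the labels says that the 3 samples of a group were separate cultures, so their spread may be technical.

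Beta-2-microglobulin is a small protein of immunoglobulin fold that binds without covalent bonds to the heavy chain of class I molecules. Most heavy chains need it to fold in the endoplasmic reticulum, take up a peptide and reach the cell surface, where cytotoxic T cells read them. It also pairs with class I relatives such as the neonatal Fc receptor, the iron regulator HFE and CD1d. Almost all nucleated cells make it, interferons raise its transcription, and it is widely used as a reference gene for RNA measurements.

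B2m lies on chromosome 2 at 122147687 to 122153082 in RefSeq's GRCm38.p6 annotation, a newer build than the mm9 design of the array, so these coordinates place the gene and not the probe. The sequence of the probe was not used here. To show the control region of the transcript that was measured, the last 150 bases before its start (chr2:122147537-122147686, plus strand, GRCm38.p6, from RefSeq) are printed, with motif matches in capitals.
B2m promoter: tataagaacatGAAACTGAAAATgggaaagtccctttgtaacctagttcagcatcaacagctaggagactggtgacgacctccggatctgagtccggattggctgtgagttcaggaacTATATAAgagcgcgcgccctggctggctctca
The motifs were searched on both strands over the 250 bases before the start, and their letters were chosen with this promoter in view. The interferon-response unit GAAANN, sought as 2 tandem copies, matched from base 139 to base 128 before the start, and 2.96% of 32851 RefSeq promoter windows of the same length hold such a pair. The TATA sequence TATATAA matched at bases 32 to 26, and 3.04% of windows hold it. These matches are letters in a window, and no array measured binding or promoter activity.

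The B2m probe was bright on every array. It was read by 20 spots per array, all of them well above background by the scanner software's own test and 0 saturated. Local background at these spots was 17 to 20 intensity units, and the median of the negative-control probes was 3.35 to 4.42. After spots marked as outliers by the software were left out (6, 2 and 2 on differentiated arrays 1, 2 and 3, and 0, 3 and 0 on the undifferentiated ones), the signal was 30176 ± 592 intensity units on differentiated array 1 (SD over 14 spots). It was 37084 ± 927 on differentiated array 2 and 39202 ± 1619 on differentiated array 3 (SD over 18 spots each). The undifferentiated arrays read 27579 ± 665 on array 1 (20 spots), 30663 ± 990 on array 2 (17 spots) and 31900 ± 1638 on array 3 (20 spots). The spots of an array share 1 RNA, so these errors describe the reading and not the cells. They amounted to 1.96% to 5.13% of the mean.

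Before any scaling between arrays the groups overlapped. On the log2 scale the unscaled signals were 14.88, 15.18 and 15.26 on differentiated arrays 1, 2 and 3, and 14.75, 14.90 and 14.96 on the undifferentiated ones. Differentiated array 1 thus lay below undifferentiated arrays 2 and 3. The unscaled log2 difference was 0.23 (standard error 0.215 from limma's fit of all 41592 kept probes). Differentiated array 1 was also the dimmest as a whole. Its 75th percentile over all probes was 195 intensity units, against 244 to 267 on the other 5 arrays, and 62.6% of its probes were well above background, against 66.3% to 71.1%.

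With each array's 75th percentile subtracted from its log2 signals, B2m stood at 7.27, 7.20 and 7.24 on differentiated arrays 1, 2 and 3, and at 6.71, 6.84 and 7.03 on the undifferentiated ones. All 3 differentiated arrays lay above all 3 undifferentiated ones, with a gap of 0.18 between the nearest arrays. The means were 7.24 ± 0.034 in differentiated and 6.86 ± 0.158 in undifferentiated cells (SD, n = 3 each). The log2 difference was 0.38 with a standard error of 0.130, or 1.30-fold, against a pooled replicate SD of 0.114. In such bulk samples more cells rich in B2m RNA and more of it per cell cannot be told apart. Of all kept probes, 13.6% had every differentiated array above every undifferentiated one and 19.2% had every differentiated array below. B2m was chosen for this pattern, so nothing is read from its place in that share. Its difference exceeded that of 85.8% of kept probes, and that of 93.0% with quantile normalization and 92.3% in the authors' table.

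The 20 B2m spots sit at the same positions on every array, and 13 of these positions were free of outlier marks on all 6. At all 13 the differentiated arrays lay above the undifferentiated ones on the scaled level. The mean difference per position ran from 0.30 to 0.41, with an SD of 0.036 between positions. Each of these differences was taken at the same position on all arrays, so an effect of position shared by the arrays cancels in it. The SD between positions therefore cannot show how far position moves the level. The spots of an array share the same RNA, so the 13 positions repeat the gap between the arrays and are not separate readings of the cells. Of the 13 spots marked as outliers over the 6 arrays, 8 lay below the mean of the other spots of their array, and with all spots kept the difference was 0.35.

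**Figure D1:**
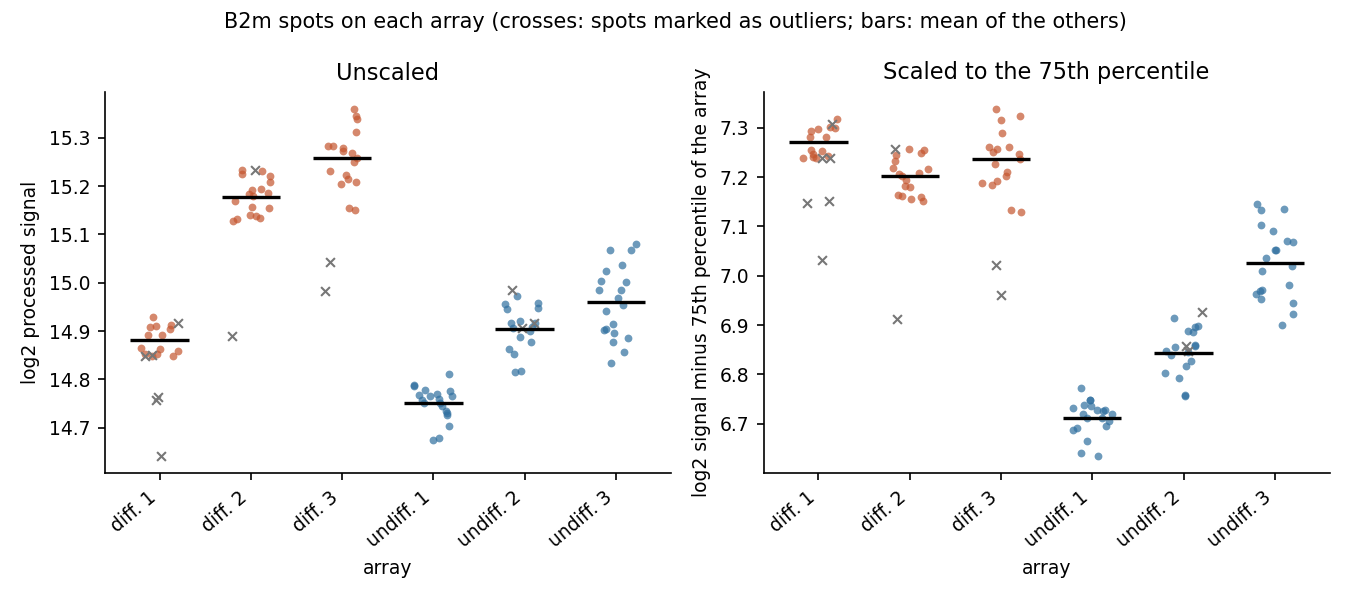
Log2 signal of each of the 20 B2m spots on the 6 arrays (diff., differentiated; undiff., undifferentiated), without scaling (left) and after subtracting the array's 75th percentile (right). Crosses are spots marked as outliers by the scanner software and bars are the means of the other spots: differentiated array 1 lies among the undifferentiated arrays on the left, at 14.88, and above them on the right, at 7.27.

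The size of the B2m difference depended on how the arrays were put on 1 scale. Quantile normalization, under which the 6 arrays share 1 distribution of signals, placed B2m at 15.32, 15.27 and 15.43 on differentiated arrays 1, 2 and 3 and at 14.68, 14.57 and 14.70 on the undifferentiated ones. The groups were further apart on that scale, by 0.57 between the nearest arrays, and the difference was 0.69 (standard error 0.110), or 1.62-fold. The log2 values in the authors' deposited table were 15.32, 15.23 and 15.35 on the differentiated and 14.70, 14.60 and 14.67 on the undifferentiated arrays. A fit of that table gave a difference of 0.64 (standard error 0.105). All differentiated arrays lay above all undifferentiated ones in 15.9% of kept probes with quantile normalization, in 15.6% in the authors' table and in 5.49% without scaling.

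B2m belonged to the 4160 brightest of the 41592 kept probes, and among these the scalings part. Their median log2 difference was -0.23 with the 75th percentile and 0.0031 with quantile normalization, while the median over all kept probes was -0.05 and -0.02. The B2m difference exceeded those of 92.9% of these bright probes with the 75th percentile and of 94.7% with quantile normalization. Its place among these bright probes was therefore nearly the same on these scales, although its value was not. Over all kept probes its place moved more, from 85.8% with the 75th percentile to 93.0% with quantile normalization. B2m was chosen by this difference, so these places are a description.

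The rank of the probe by brightness within an array does not depend on any scaling that keeps the order of the probes. Among the 41592 kept probes B2m ranked 583, 627 and 583 from the top on differentiated arrays 1, 2 and 3. It ranked 899, 971 and 920 on the undifferentiated arrays. No undifferentiated array came near the differentiated ones by rank, and differentiated array 1, the dim one, had the same rank as differentiated array 3. As a percentile the rank was 98.56 ± 0.061 in differentiated and 97.77 ± 0.089 in undifferentiated cells (SD, n = 3 each), a difference of 0.799 percentile points. A rank also moves when other bright transcripts change, because it places B2m among the other kept probes of the same array.

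**Figure D2:**
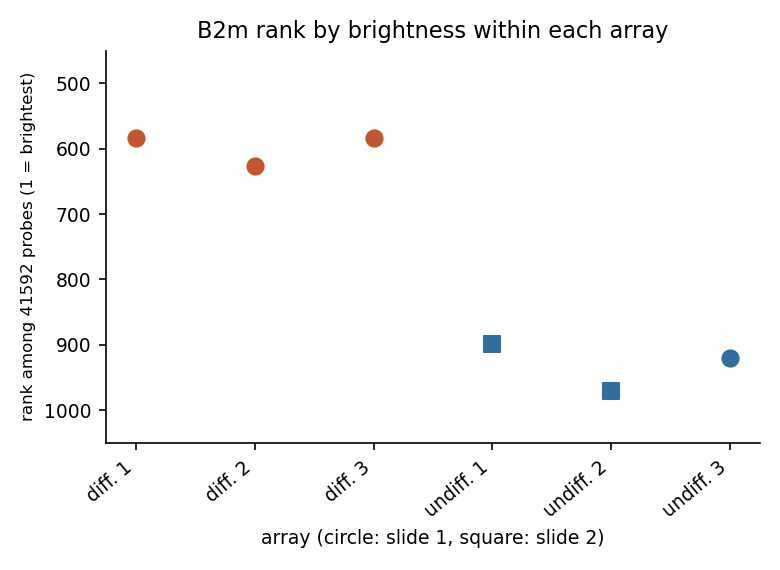
Rank of the B2m probe by brightness among the kept probes on each array, with the brightest probe at 1 and the axis turned so that brighter is up; circles are arrays of slide 1 and squares arrays of slide 2. The differentiated arrays lie at 583 to 627 and the undifferentiated arrays at 899 to 971, with those of slide 2 on either side of the one on slide 1.

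Slides and scans were not balanced between the groups. Slide 1 carried all differentiated arrays plus undifferentiated array 3. Slide 2 carried undifferentiated arrays 1 and 2, which were also scanned together. Differentiated array 1, the dim one, had a scan of its own. With the 75th percentile, undifferentiated array 3 was the highest of its group, at 7.03 against 6.71 and 6.84 on slide 2. The difference within slide 1 was 0.21 (standard error 0.182), and with the slide as a block it was the same 0.21 (standard error 0.175), because slide 2 held no differentiated array. Within the scan shared by differentiated arrays 2 and 3 and undifferentiated array 3 it was 0.19 (standard error 0.318), and with the scan as a block 0.19 (standard error 0.229). With quantile normalization, undifferentiated array 3 stood at 14.70 beside 14.68 and 14.57 on slide 2, and the difference within slide 1 was 0.64 (standard error 0.177). In the authors' table it was 0.63 within slide 1 (standard error 0.169). The percentile rank differed by 0.775 points within slide 1 and by 0.757 within the shared scan. On slide 1 alone, B2m thus read higher on each differentiated array than on the undifferentiated one by rank and by these scaled levels. A quantile-normalized level follows from the probe's rank on its array, so rank and quantile level are not separate readings. Without scaling, differentiated array 1 lay below undifferentiated array 3 (14.88 against 14.96). By each of these scaled levels the difference within slide 1 was smaller than over all arrays, most so with the 75th percentile. It was 0.21 against 0.38 there, 0.64 against 0.69 with quantile normalization and 0.63 against 0.64 in the authors' table. By percentile rank it was 0.775 against 0.799 points. Each difference within slide 1 or the shared scan, or with a block for them, rests on 1 undifferentiated array. In the fits of slide 1 or the shared scan alone, the spread of B2m itself came from the differentiated arrays. In the fits with a block it also came from undifferentiated arrays 1 and 2. The standard errors are moderated, so they draw on the spread of the other kept probes too and do not measure that of B2m alone. With the 75th percentile the SD of B2m over the 3 differentiated arrays was 0.034.

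The other 14 named genes, mostly in general use as expression references, show how the B2m value compares within the same arrays. Each was read by 20 spots per array, and B2m had the highest log2 difference of the 15. With the 75th percentile, 9 of the 14 had values below 0 and 5 above. Below 0 were 8 with quantile normalization, 8 in the authors' table and 13 without scaling, where only G6pd2 lay above.

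Among enzymes, G6pd2, a retrogene relative of glucose-6-phosphate dehydrogenase, had a log2 difference of 0.20 (standard error 0.133), and Ldhal6b, a lactate dehydrogenase relative, one of 0.07 (0.118). The lysosomal glucuronidase gene Gusb had 0.06 (0.163), the glycerol kinase gene Gk -0.10 (0.157) and the glycolytic gene Gapdh -0.12 (0.130). Hprt, which salvages purines, had -0.53 (0.139). Among genes of transcription and RNA, Tbp, the TATA-binding protein, had 0.07 (0.167) and Nono, an RNA-binding protein, 0.02 (0.186). The ribosomal protein gene Rpl13a had -0.33 (0.142), the cyclophilin gene Ppia -0.24 (0.120) and the chaperone gene Hsp90ab1 -0.45 (0.185), against -0.08, -0.11 and -0.12 with quantile normalization. The cytoskeletal genes Actb, at -0.44 (0.174), and Tuba1b, at -0.34 (0.136), had -0.20 each with quantile normalization, as did Hprt. The lowest value was that of Tfrc, the transferrin receptor, at -0.56 (0.160). With quantile normalization the differences of 13 of the 14 were higher than with the 75th percentile, and Gapdh turned to 0.06.

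**Figure D3:**
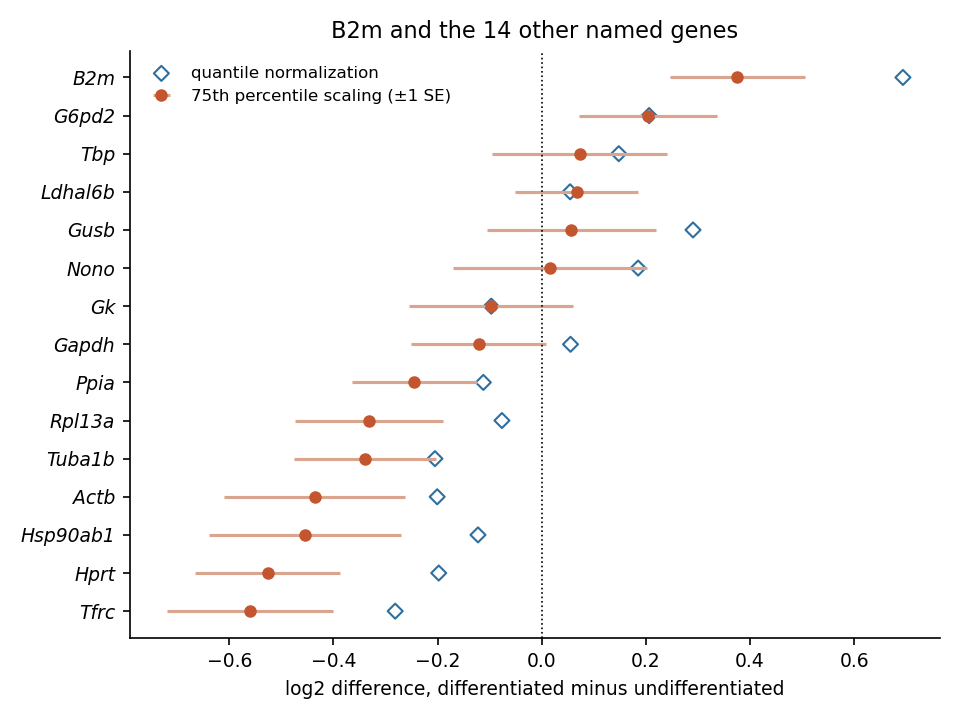
Log2 difference between differentiated and undifferentiated cells for B2m and the 14 other genes named by a RefSeq accession. Circles are values scaled to the 75th percentile with 1 standard error from limma's fit, and diamonds are values after quantile normalization: B2m lies highest with each, at 0.38 and 0.69.

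A ratio to another gene on the same array is free of any constant added to that array's log2 values, which is how B2m is used when it serves as a reference. The B2m difference stood 0.56 above the median difference of the 14 genes. Each gene was centred on its own mean over the 6 arrays, and the median of the 14 was subtracted from B2m. The result was 0.36, 0.24 and 0.23 on differentiated arrays 1, 2 and 3 and -0.31, -0.36 and -0.20 on the undifferentiated ones. The arrays of a group lay closer together on this measure (0.28 ± 0.072 and -0.29 ± 0.083, SD, n = 3 each) than the groups did to each other. Within slide 1 B2m stood 0.48 above the median of the 14, and within the shared scan 0.50.

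Taken gene by gene, the log2 ratio of B2m was higher in differentiated cells against all 14 genes, by 0.17 for G6pd2 up to 0.94 for Tfrc. The groups did not overlap for 10 of the 14 ratios. They overlapped for the ratios to G6pd2, Tbp, Gusb and Nono. Over all other kept probes, 51.3% gave a ratio of B2m to the probe that was higher on every differentiated array, so a ratio without overlap was common here. With quantile normalization the groups did not overlap for 14 of 14, where 76.9% of all probes gave the same. In the authors' table it was also 14 of 14, where 74.5% of all probes did. The ratio to Gapdh differed by 0.50 between groups, the ratio to Actb by 0.81 and the ratio to Hprt by 0.90. These ratios show that B2m and the compared gene changed unequally, not which of them stayed level.

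The likeness of patterns was measured as the root mean square difference between log2 levels, each centred on its probe's mean, over the 6 arrays. By this measure the named genes nearest to B2m were G6pd2 at 0.175, Ldhal6b at 0.198 and Tbp at 0.220. None of these was close, as the centred B2m level itself ran from -0.34 to 0.22. G6pd2 was highest on differentiated array 3, at 0.29, and near its mean on differentiated arrays 1 and 2, at 0.0010 and 0.02. Ldhal6b was nearly flat, from -0.14 to 0.06, with undifferentiated array 1 highest. Both probes were far dimmer than that of B2m, which had mean scaled levels of 7.24 in differentiated and 6.86 in undifferentiated cells. Those of G6pd2 were 0.52 and 0.32, and those of Ldhal6b -2.35 and -2.41. The farthest was Tfrc, at 0.481. Among the 41577 kept probes without an accession, 8.30% were nearer to B2m than G6pd2 was. The nearest was ASMM10P047726, at 0.028, with levels of 3.77 ± 0.021 in differentiated and 3.42 ± 0.134 in undifferentiated cells (SD, n = 3 each). The files do not pair this probe with a gene.

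Partners of B2m in antigen presentation could not be set beside it. None of 26 listed genes of the pathway, among them the heavy chains H2-K1 and H2-D1, the peptide transporters Tap1 and Tap2, the loading factor Tapbp and the transactivator Nlrc5, was found on the array under a RefSeq accession or its symbol (0 of 26). The same held for 10 cartilage markers such as Col2a1 and Acan and for 15 markers of fat, muscle, bone, fibroblast and macrophage cells (0 of 25 in all). Whether the labelled differentiation shows in marker genes was therefore not analysed here.

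The settings tried reuse the same 6 arrays, in which B2m was chosen for being higher, and some repeat others by design. Their count is therefore a description. Over all settings, the B2m log2 difference was above 0 in 22 of 22 and ran from 0.19 to 0.69. It was 0.30 to 0.46 when any 1 array was left out with the 75th percentile scaling. The lowest of these came without undifferentiated array 1 and the highest without undifferentiated array 3.

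**Figure D4:**
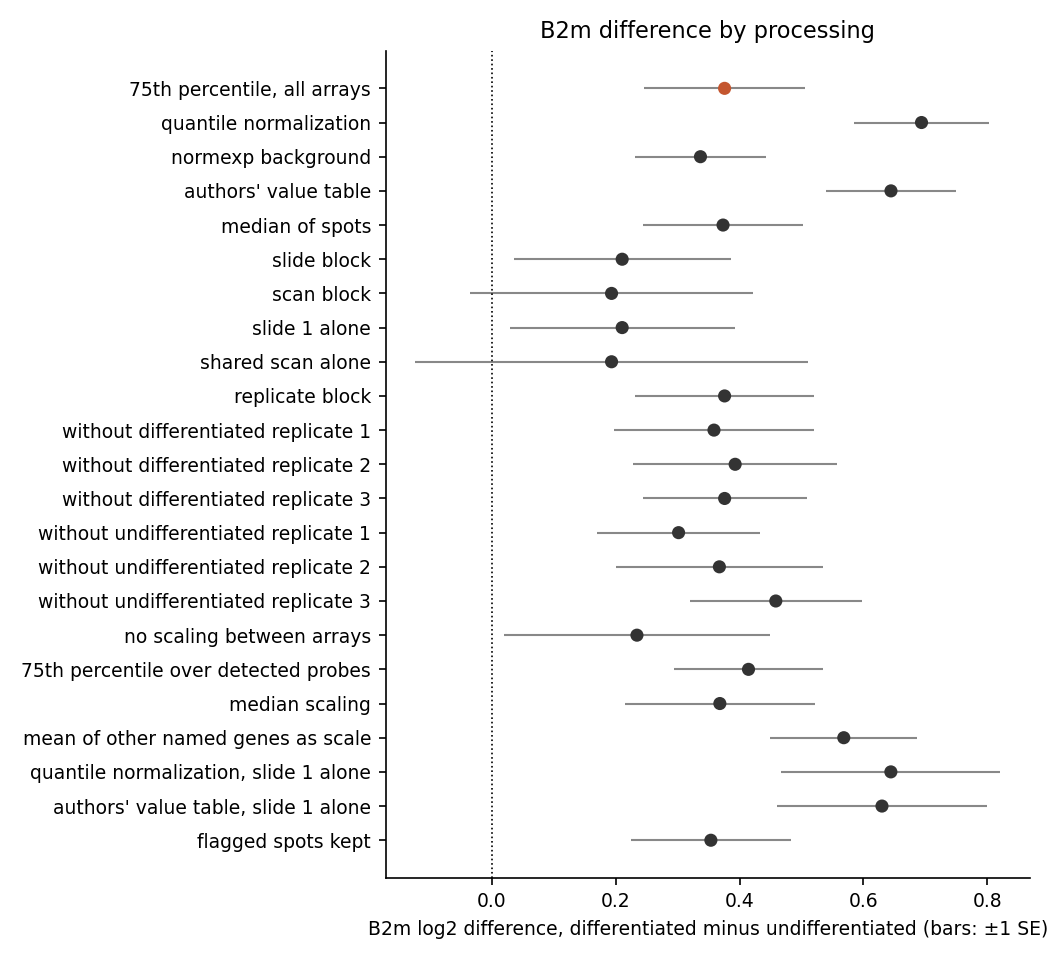
B2m log2 difference (differentiated minus undifferentiated) under the scaling used throughout (top, red) and each alternative (black), with bars of 1 standard error from limma's fits. All values lie above 0, from 0.19 within the shared scan to 0.69 with quantile normalization. The bars of the shared scan alone (standard error 0.318) and of the scan block (standard error 0.229) cross 0.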

How the data were processed

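RNA from 6 samples was measured on 1-colour Agilent arrays for messenger and long non-coding RNAs. Random-primed cRNA was labelled with Cy3, per the labels' protocols, although the labels also name biotin and Affymetrix arrays. Spot intensity values in the deposited scanner files come from Agilent Feature Extraction 11.0.1.1, background-subtracted and detrended within each array, per the file headers. The authors' deposited value table holds log2 values with equal column medians (5.755 over the non-control probes); its correlation with the log2 scanner signals was 0.9983 to 0.9999 per array, and how it was normalized is not stated in the labels or files.

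Spots marked as outliers were left out, spots of a probe were averaged as log2 values, and each array's 75th percentile was subtracted. Of 60915 probes (15 negative-control probes left out), 41592 (68.3%) were kept, being well above background on at least 3 of 6 arrays and read on all 6. Differences and standard errors came from limma 3.58.1 (R 4.3.3), fitted without a block on all kept probes and checked on simulated data. Standard errors are limma's moderated ones. The 15 accessions were matched to RefSeq symbols (GRCm38.p6) without version numbers, 15 of 15. Named genes were all 15, the 3 nearest to B2m in pattern and the nearest probe without an accession. B2m, the lists and the tests were chosen with earlier results of these data known. Alternatives were other scalings (quantile, median, none, detected probes, other named genes), normexp background correction on the median signals (offset 50), the authors' table, the median of spots, blocks for slide, scan and replicate number, 1 slide or scan alone, and leaving out each array. The number of arrays limits the precision.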

Additional observations from a re-analysis of the deposited data

How the results depend on the processing

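Keeping the marked spots, and slide 1 alone combined with another scaling, were settings chosen after seeing the data. The alternatives reuse the same 6 arrays and are not independent of each other. By design, the replicate block gives the same difference as no block. The slide block likewise gives that of slide 1 alone, and the scan block that of the shared scan alone. The B2m difference of 0.38 stayed above 0 in 22 of 22 alternatives. In 12 of them it moved by less than the pooled replicate SD of 0.114. It moved further with quantile normalization (0.69), the authors' table (0.64), the mean of the other named genes as the scale (0.57), no scaling (0.23), the slide block and slide 1 alone (0.21 each), the scan block and the shared scan alone (0.19 each), and on slide 1 alone with quantile normalization (0.64) or the authors' table (0.63). B2m minus the median of the 14 other named genes, 0.56, moved by more than its replicate SD of 0.078 with quantile normalization (0.78), the authors' table (0.75), the slide block and slide 1 alone (0.48 each), and on slide 1 alone with quantile normalization (0.71) or the authors' table (0.70). The percentile rank difference, 0.799, was 0.548 with no filter and 0.941 over probes well above background on all arrays, where the number of probes ranked differs. The number of probes with all differentiated arrays above all undifferentiated ones, 5670, was 2285 without scaling. The cause of the other shifts was not tested. Without 1 array, the 3 B2m values ran from 0.30 to 0.46, from 0.54 to 0.61 and from 0.75 to 0.84.

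Deviations from the group mean correlated at 0.144, -0.0871 and 0.0339 between samples of the same replicate number, within the range of differently numbered pairs (-0.167 to 0.138) in 2 of 3 cases, so the numbers are not shown to pair the samples. With the replicate block the B2m difference was 0.38 (standard error 0.144) and B2m minus the median of the others 0.56. Both equal the values without it, because each replicate number holds 1 array of each group, so only the standard error could change.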
